A study of Mus musculus with 6 samples.

Results

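The 10 genes followed here carry ions, acid, base, magnesium and nutrients across the membranes of colon epithelial cells, and their RNA was measured by single-nucleus sequencing of the mouse colon. They are Slc26a3, Slc9a3, Slc9a2, Slc13a2, Slc15a1, Atp12a, Cftr, Car4, Trpm6 and Car1. They were taken by symbol from the gene names of the deposited files and are 10 of the 31053 genes there, each present under 1 identifier in all 6 libraries. All mice were wild-type C57BL/6J. Control mice gave 2 libraries, mice kept in restraint for 7 days gave 3 (Stress), and mice injected with the glucocorticoid dexamethasone for 7 days gave 1 (Dexamethasone). The nuclei came from whole colon and were sorted by DAPI and by INTACT, a tag on the nuclear envelope. The driver of the tag, and the number of mice behind each library, are not given in the sources used here. P-values therefore measure the spread between libraries, which may be technical in part.

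The labels call these nuclei enteric nervous system, and epithelial nuclei were nevertheless common among them. After filtering, 3430 of 11040 barcodes were kept and formed 22 clusters. Of these nuclei, 1048 fell in 6 clusters named epithelium-like from their markers. The 10 transporters were left out of the clustering and out of every marker list, so that their pattern across clusters was not built in.

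The surface of the colon absorbs salt and water mainly by exchanging luminal sodium for protons and luminal chloride for bicarbonate, with carbonic anhydrases supplying both. Cells of the crypt instead secrete chloride through Cftr. As cells move from the crypt to the surface they lose the secretory program and gain the absorptive one, and corticosteroids are known regulators of sodium uptake in this epithelium.

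All positions given here are from GENCODE M21 on GRCm38. Among the exchangers, Slc26a3 (ENSMUSG00000001225, chr12:31390871-31473917, plus strand) swaps chloride for bicarbonate at the apical membrane. Slc9a3 (ENSMUSG00000036123, chr13:74121457-74169442, plus strand) and Slc9a2 (ENSMUSG00000026062, chr1:40680574-40769273, plus strand) are apical sodium/proton exchangers. Car1 (ENSMUSG00000027556, chr3:14766216-14808368, minus strand) is a cytosolic and Car4 (ENSMUSG00000000805, chr11:84957786-84966044, plus strand) a membrane-anchored carbonic anhydrase. Atp12a (ENSMUSG00000022229, chr14:56365068-56388550, plus strand) encodes the catalytic subunit of the non-gastric proton/potassium pump. Cftr (ENSMUSG00000041301, chr6:18170687-18322768, plus strand) is the cyclic AMP-gated chloride channel. Trpm6 (ENSMUSG00000024727, chr19:18749983-18892511, plus strand) is an apical magnesium channel fused to a kinase. Slc13a2 (ENSMUSG00000001095, chr11:78397087-78422217, minus strand) takes up citrate and succinate with sodium, and Slc15a1 (ENSMUSG00000025557, chr14:121459621-121505252, minus strand) takes up small peptides with protons.

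Promoter sequences from RefSeq (GRCm38.p6) were found for 7 of the 10 genes. None was found for Slc9a2, Atp12a and Car1. The 4 printed here belong to the genes on which the results below turn: the surface gene Slc26a3, the crypt gene Cftr, Trpm6, which had the widest gap between Stress and Control in colonocyte-like nuclei, and Slc9a3, which was nearly missing from 1 library. Each is the stretch up to 250 bases before the annotated start, 5′ to 3′ on the gene's own strand, and capitals mark matches on either strand to 5 motifs. Those of the intestinal factors were TTTAT for the Cdx proteins and CAAAG for HNF4. Those of the core promoter were TATAAA for the TATA box and GGGCGG for the GC box. That of the glucocorticoid receptor was AGAACA, which is part of its site.
Slc26a3, chr12:31437969-31438216, plus strand: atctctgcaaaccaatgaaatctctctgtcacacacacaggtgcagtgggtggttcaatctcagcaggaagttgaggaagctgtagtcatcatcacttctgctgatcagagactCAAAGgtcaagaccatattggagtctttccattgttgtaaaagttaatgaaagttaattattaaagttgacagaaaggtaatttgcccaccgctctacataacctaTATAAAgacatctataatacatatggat
Slc9a3, chr13:74121163-74121412, plus strand: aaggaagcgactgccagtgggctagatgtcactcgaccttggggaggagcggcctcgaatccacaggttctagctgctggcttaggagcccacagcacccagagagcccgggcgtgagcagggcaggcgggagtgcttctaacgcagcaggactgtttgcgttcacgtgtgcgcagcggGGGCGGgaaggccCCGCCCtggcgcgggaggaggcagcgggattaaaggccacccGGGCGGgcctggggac
Trpm6, chr19:18749480-18749729, plus strand: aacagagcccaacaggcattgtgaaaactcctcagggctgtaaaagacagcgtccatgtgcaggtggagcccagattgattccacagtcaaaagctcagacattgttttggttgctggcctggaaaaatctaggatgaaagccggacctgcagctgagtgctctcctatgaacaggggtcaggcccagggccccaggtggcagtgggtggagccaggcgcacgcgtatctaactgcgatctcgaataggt
Cftr, chr6:18170437-18170686, plus strand: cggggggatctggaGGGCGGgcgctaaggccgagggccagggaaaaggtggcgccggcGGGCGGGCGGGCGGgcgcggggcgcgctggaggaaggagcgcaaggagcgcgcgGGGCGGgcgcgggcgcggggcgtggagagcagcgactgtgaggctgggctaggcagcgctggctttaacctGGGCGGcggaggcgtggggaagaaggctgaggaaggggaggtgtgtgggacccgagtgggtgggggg
The Slc26a3 stretch stops 2 bases short of the full 250 because these bases are annotated as an exon, and it lies in an intron of 1 longer Slc26a3 transcript. It held 1 CAAAG match and a TATAAA match that overlaps the single TTTAT match. The Slc9a3 stretch held 3 GC boxes and the Cftr stretch 6, and the Trpm6 stretch held no match to any of the 5 motifs. Over all 32851 RefSeq promoters and the same 250 bases, 37.3% held the Cdx motif, 48.6% that of HNF4, 12.4% the TATA box, 32.7% the GC box and 16.1% the receptor's motif. None of the 7 promoters held AGAACA. These matches describe the letters in the window and were not tied to any measured level.

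The libraries held between 6057994 and 14838057 unique molecular identifiers (UMIs, counted RNA molecules), and between 378 and 765 kept nuclei each. Before filtering, mitochondrially encoded UMIs took a median of 4.44% per barcode in Stress 3, the lowest library, and 19.8% in Control 2, the highest. Between 0 and 3 barcode sequences were shared by any of the 15 pairs of libraries. Only nuclei with at most 5% mitochondrially encoded UMIs were used, and most transporter RNA lay outside them. For Slc26a3, 4715 of 44349 UMIs (10.6%) were in kept nuclei, and for the other 9 genes between 7.69% (Slc13a2) and 22.5% (Cftr). Over all genes this share was 22.04%. It differed between libraries: 12.0% and 1.91% of all Trpm6 UMIs were kept in the Control libraries and 11.8%, 13.1% and 20.8% in those of Stress. The Dexamethasone library kept 4.42%. The clustering was therefore repeated without that limit, on 10312 barcodes, and its values are given where they bear on a result.

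The transporters differed between 2 compartments of the epithelium, the colonocyte-like and the crypt-like nuclei. Of the 10, 9 were higher in colonocyte-like than in crypt-like nuclei when all libraries were summed, and Cftr was the reverse. Colonocyte-like nuclei (434) made up 2 clusters, cluster 0 with 220 nuclei and cluster 1 with 214. Crypt-like nuclei (288) made up 1 cluster, in which Lgr5, the stem cell receptor, was among the 10 leading genes. Levels are given in CPM, the usual depth-scaled unit, which sets the gene's UMIs against all UMIs of the nuclei in question. They are compared within a gene only, since no value here is corrected for gene length.

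Slc26a3 measured 3529 CPM in colonocyte-like and 137 CPM in crypt-like nuclei, a 25.7-fold difference, and was higher in colonocyte-like nuclei in 6 of 6 libraries. Slc15a1 (958 against 26.5 CPM, 36.1-fold) and Atp12a (997 against 23.4 CPM, 42.6-fold) differed by more on this scale. Car4, the membrane-anchored anhydrase, stood at 1927 against 112 CPM (17.1-fold). All 3 were higher in colonocyte-like nuclei in 6 of 6 libraries. Slc9a2 (631 against 137 CPM, 4.59-fold), Trpm6 (612 against 161 CPM, 3.80-fold) and Car1 (562 against 169 CPM, 3.33-fold) had smaller differences, again in 6 of 6 libraries.

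Slc9a3 measured 304 against 12.5 CPM (24.4-fold) but was higher in colonocyte-like nuclei in 4 of 6 libraries. Slc13a2 measured 109 against 28.1 CPM (3.87-fold) and was higher in 5 of 6. Both were at 0 UMIs in the 4 colonocyte-like nuclei of the Dexamethasone library. Cftr measured 1308.5 CPM in crypt-like and 22.4 CPM in colonocyte-like nuclei, a 58.3-fold difference present in 6 of 6 libraries. Without the mitochondrial limit the direction was the same in 6 of 6 libraries for each of the 10 genes.

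Some RNA of every transporter was found in nuclei that should lack it. In glia-like nuclei Slc26a3 stood at 31.1 CPM, Car4 at 34.2 CPM and Car1 at 49.6 CPM, and the other 7 genes between 3.08 and 8.63 CPM. For Slc9a3 the crypt-like level of 12.5 CPM (8 UMIs) was 2.89 times the glia-like level, and for Atp12a 2.81 times (15 UMIs). For Trpm6 and Slc9a2 the crypt-like level was 20.1 and 19.4 times that in glia. Cftr in colonocyte-like nuclei was 2.60 times its glia-like level, from 26 UMIs. The glia-like levels were higher without the mitochondrial limit, at 146 CPM for Slc26a3, 82.3 CPM for Car4 and 26.7 CPM for Slc9a3. The crypt-like level was then 0.689 times the glia-like level for Slc26a3, 0.232 times for Slc9a3, 0.972 times for Slc15a1, 0.799 times for Car4 and 1.06 times for Car1. In that setting these 5 genes were at about the background or below it in crypt-like barcodes.

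**Figure D1:**
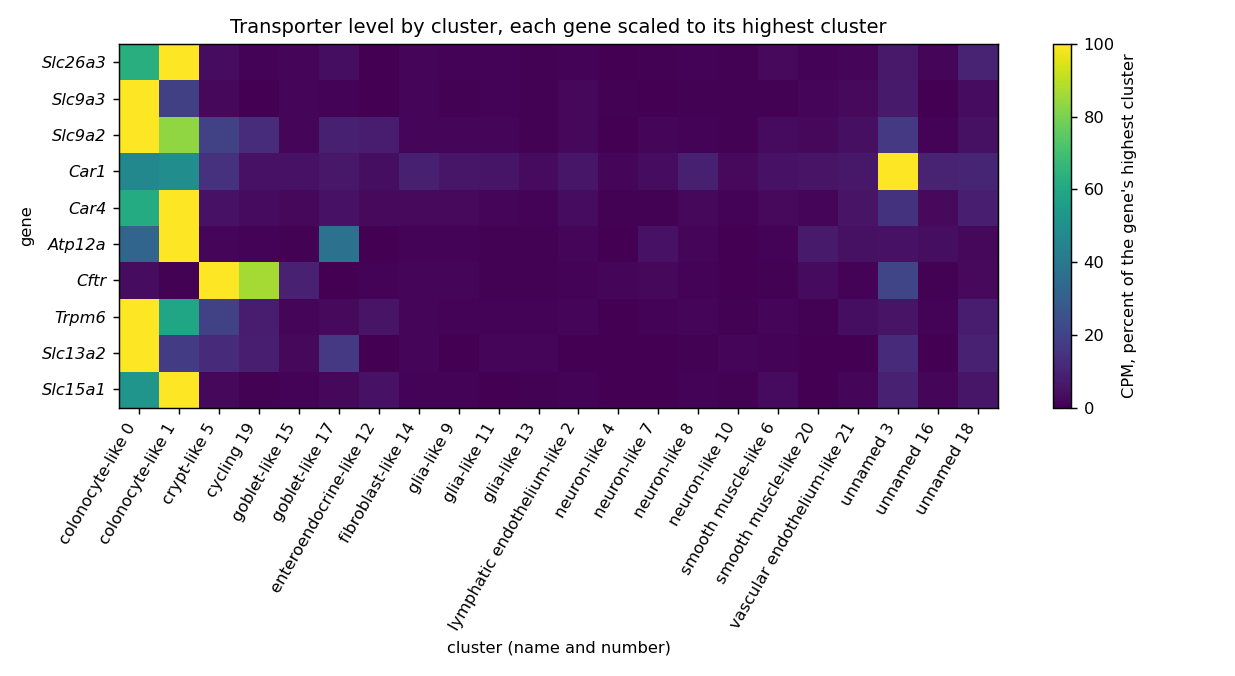
Level of each transporter (rows) in each of the 22 clusters (columns, with name and number), as CPM in percent of that gene's highest cluster (colour scale from 0 to 100). Colonocyte-like clusters 0 and 1 hold the highest values of 8 genes, Cftr peaks in crypt-like cluster 5 and in cycling cluster 19, and Car1 peaks in unnamed cluster 3.

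Outside these 2 compartments, high levels were seen in a few clusters. Cycling nuclei (cluster 19, led by Top2a and Mki67) had Cftr at 1135 CPM, next to the 1308.5 CPM of the crypt-like cluster. In cycling nuclei single libraries spanned 763 to 1796 CPM and in crypt-like nuclei 840 to 1906 CPM, so that these levels did not separate. Atp12a had a further site in goblet-like cluster 17, the one led by the mucus genes Fcgbp and Clca1, at 495 CPM. There it ran from 128 CPM in Control 1 to 1052 CPM in Stress 1, on 3 to 93 UMIs a library. In the other goblet-like cluster (15, led by Slc12a8 and Spdef) Atp12a stood at 8.13 CPM while Cftr reached 120 CPM. Car1 was highest, at 1168 CPM, in cluster 3, which was left unnamed because keratins of squamous epithelium (Krt6a, Krt13) and neutrophil genes (Ltf, Ppbp) were among its leading genes. Of the 212 Car1 UMIs in that cluster, 130 came from Stress 3, and Stress 1 had no nucleus in it.

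Because deeper nuclei show more genes, detection was compared after thinning each nucleus to 1000 UMIs. Median depths before thinning were 1499 UMIs in colonocyte-like cluster 0, 3101 in cluster 1, 1671 in crypt-like, 2322 in goblet-like and 3219 in glia-like nuclei. Shallower nuclei were left out: 60 of 220 in cluster 0, 0 of 214 in cluster 1, 81 of 288 crypt-like, 42 of 303 goblet-like and 74 of 882 glia-like. Slc26a3 was then found in 72.5% of cluster 0, 89.7% of cluster 1, 14.0% of crypt-like and 3.47% of glia-like nuclei (unthinned 78.6%, 95.8%, 21.2% and 10.4%). Cftr was found in 59.4% of crypt-like, 3.12% of cluster 0, 0.935% of cluster 1 and 0.990% of glia-like nuclei (unthinned 70.8%, 6.36%, 2.80% and 3.06%). For Cftr the share in cluster 1 was thus at the glial background. Slc9a3 was found in 17.5% of cluster 0 and 6.07% of cluster 1, against 0.371% of glia-like nuclei (unthinned 17.7%, 11.7% and 1.59%).

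**Figure D2:**
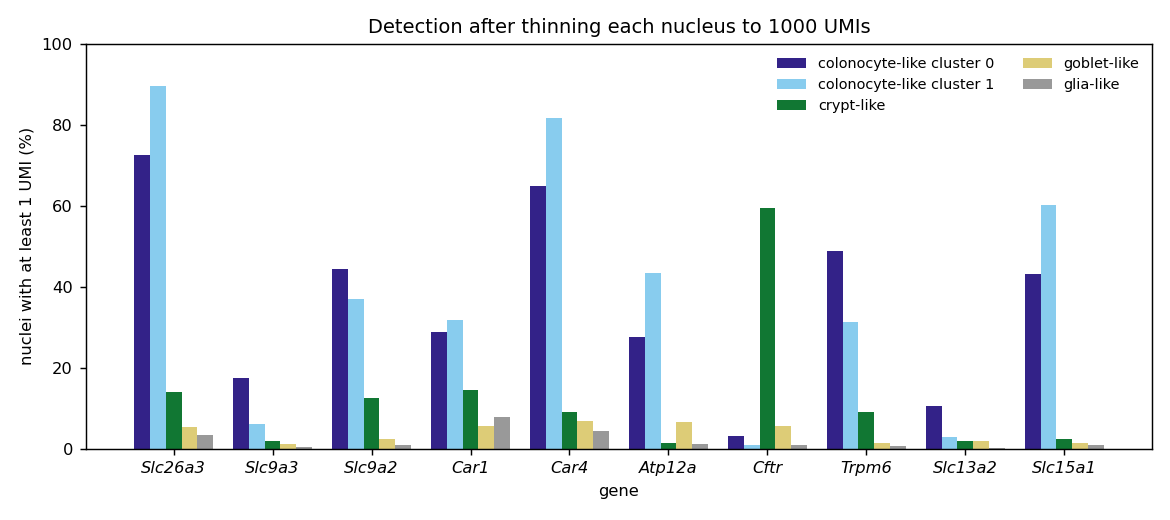
Share of nuclei with at least 1 UMI of each transporter (vertical axis, percent) after thinning every nucleus to 1000 UMIs, with 1 bar for each of 5 groups of nuclei pooled over libraries. Cftr alone has its tallest bar in crypt-like nuclei (59.4%), and glia-like bars, the background, stay at or below 7.80%.

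The absorptive genes did not all follow the same colonocytes. Slc9a3 stood at 623 CPM in cluster 0 and 118 CPM in cluster 1, a 5.29-fold difference, and Slc13a2 at 226 and 39.7 CPM (5.70-fold). Each was higher in cluster 0 in 4 of the 4 libraries that had at least 5 nuclei in both clusters. Some of their cluster 1 values rest on few UMIs: 2 for Slc13a2 in Control 1 and in Stress 1, and 2 for Slc9a3 in Stress 3. Slc26a3 (2568 CPM in cluster 0, 4092 CPM in cluster 1) and Slc15a1 (609 and 1163 CPM) were higher in cluster 1 in those same 4 libraries. Atp12a (431 and 1329 CPM) was higher in cluster 1 in all but 1 of them, Control 1. Trpm6 stood at 823 CPM in cluster 0 and 487 CPM in cluster 1 over all libraries. Within libraries Trpm6 was higher in cluster 0 in 2 of 4, Stress 2 and Stress 3.

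Cluster 1 held 158 nuclei of Stress 2 out of 214, and none of Control 2. Cluster 0 held 111 nuclei of Control 1 out of 220. A cluster drawn so heavily from 1 library may reflect that library as much as a type of colonocyte. Stress 1 had 48 nuclei in cluster 0 and 31 in cluster 1, and Stress 3 had 16 and 7, so that Stress 2 alone of the 5 Control and Stress libraries lay mainly in cluster 1. The classes were therefore summed over both clusters for the comparisons of groups, and cluster 0 was tested alone as well.

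Without the mitochondrial limit, colonocyte-like barcodes (2199) fell into 3 clusters, and 1 of them carried most Slc9a3. That cluster of 433 barcodes, led also by Reg3b, Reg3g and Slc13a2, held 3915 of the 5282 Slc9a3 UMIs counted in all barcodes. In it Slc9a3 stood at 1353 CPM and Slc13a2 at 413 CPM, against 36.1 and 38.4 CPM in the cluster of 990 barcodes led by Cpm and Car4. The third cluster (776 barcodes, 637 of them from Stress 2) had Atp12a at 1102 CPM and Slc15a1 at 966 CPM.

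Likeness over the 22 clusters was measured by Pearson's r of log2(CPM + 10) among 8297 genes with at least 200 UMIs, as a description, since all clusters share libraries and depth. The 8 surface genes with enough UMIs were alike, with r from 0.61 (Atp12a and Trpm6) to 0.95 (Slc9a2 and Trpm6). Cftr stood apart, with r from -0.09 (Atp12a) to 0.39 (Slc9a2). Slc13a2 had 191 UMIs in kept nuclei and was not ranked. The genes nearest to Slc26a3 were Car4 (0.93), the creatine transporter Slc6a8 (0.93) and the water channel Aqp8 (0.92). Nearest to Slc9a3 were the cytochrome Cyp2c55 (0.91), the phosphate transporter Slc20a1 (0.89) and Car4 (0.88). Nearest to Cftr were Cenpf (0.92), a mitotic protein, Clca3b (0.92) and the chromatin protein Hmga2 (0.91). Slc9a2 lay nearest to Gm3054 (0.98), Trpm6 and the channel Trpv3 (0.94), and Trpm6 to Clca4a (0.95), Slc9a2 and Mpzl3 (0.94). Slc15a1 lay nearest to Ceacam20 (0.96), Car4 (0.95) and the transglutaminase Tgm3 (0.94), and Car4 to Prdx6 (0.97), Slc15a1 and Cyp2c55 (0.94). Atp12a lay nearest to Cyp2d34 (0.91), 2010109I03Rik (0.88) and Trim15 (0.86), and Car1 to 2200002D01Rik (0.94), AA467197 (0.91) and 2610528A11Rik (0.91).

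The next question was whether a week of restraint changed these transporters. No transporter passed the threshold in colonocyte-like nuclei, and the widest gap between the groups was that of Trpm6, the magnesium channel, which was lower in all 3 Stress libraries than in both Control libraries. UMIs were summed per library and class and tested with edgeR's quasi-likelihood test over all genes that passed its count filter, with Benjamini-Hochberg adjustment and a threshold of 0.05. In colonocyte-like nuclei 2749 genes were tested and 3 were called (0.109%). Of the 9 transporters tested, 0 were called by edgeR, 2 had an unadjusted p under 0.05, and 1 was called by DESeq2. The share of all genes at that unadjusted p is not given for this class, so the 2 are not read as a result. The 0.109% is the share of edgeR, and the larger count of DESeq2 over all genes is given with the alternatives below. Cftr did not pass the count filter there.

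Trpm6 measured 1007 and 1517 CPM in the Control libraries, 324, 471 and 498 CPM in the Stress libraries and 677 CPM in the Dexamethasone library. Both Control values lie above every Stress value. The gap between 498 and 1007 CPM is wider than the SD of either group (Control 1262 ± 361 CPM, SD, n = 2, and Stress 431 ± 93.8 CPM, SD, n = 3). The 2 Control libraries themselves, at 1007 and 1517 CPM, lie about as far apart as that gap. The log2 fold change of Stress over Control was -1.43 ± 0.32 (SE), with an edgeR p of 0.000591 and an adjusted p of 0.127, so Trpm6 did not pass over all genes. Its adjusted p was 0.0185 with DESeq2 and ranged from 0.0185 to 0.454 over 10 alternatives, in which the log2 fold change stayed between -1.61 and -1.14.

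The direction of the Trpm6 difference was the same in both further settings, with a smaller size. In cluster 0 alone Trpm6 measured 966 and 1517 CPM in Control against 295, 751 and 501 CPM in Stress, again without overlap, and the log2 fold change was -1.28 ± 0.42 (SE, edgeR adjusted p = 0.371). Without the mitochondrial limit it measured 897 and 571 CPM in Control against 236, 398 and 533 CPM in Stress. The groups still did not overlap, with Control 2 and Stress 3 the nearest pair, and the log2 fold change was -1.14 ± 0.40 (SE, edgeR adjusted p = 0.454). Within the cluster of 990 barcodes of that setting the groups did overlap. There Trpm6 measured 782 and 577 CPM in Control against 335, 483 and 1108 CPM in Stress, the last from 7 barcodes. The share of all genes without overlap was not counted in these further settings. The 15 colonocyte markers, which do not include Trpm6, overlapped between the groups: they summed to 14542 and 11146 CPM in Control and to 12630, 14928 and 16171 CPM in Stress. Because the class was named by these same markers, this overlap cannot show that the colonocytes of the groups were alike.

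**Figure D3:**
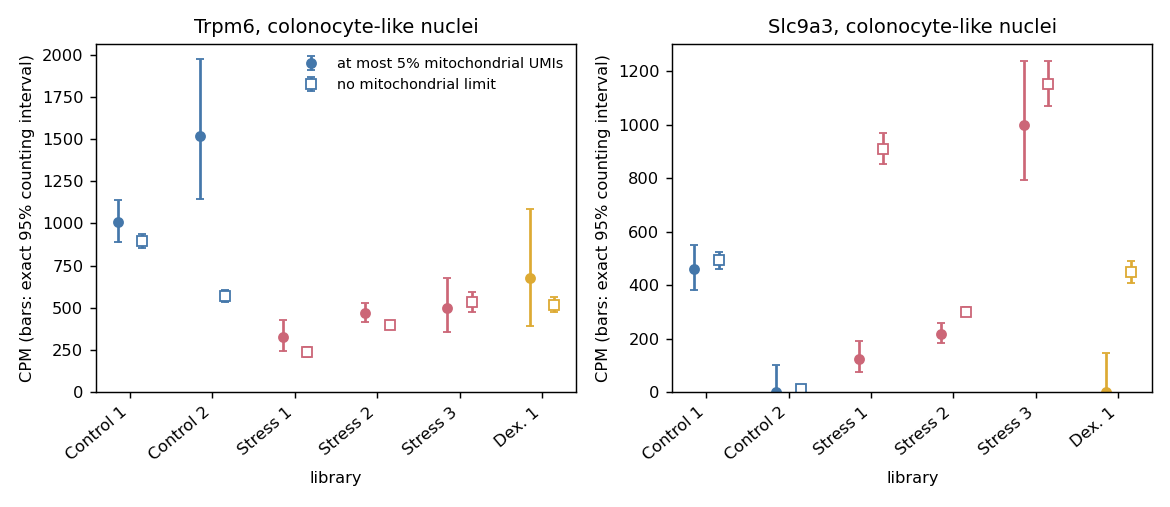
CPM of Trpm6 and Slc9a3 in colonocyte-like nuclei of each library, with filled circles for nuclei of at most 5% mitochondrially encoded UMIs, open squares for no such limit, and bars for exact 95% Poisson intervals, which cover counting error only. Trpm6 lies between 324 and 498 CPM in Stress and above 1000 CPM in both Control libraries (filled circles), and Slc9a3 is at or near 0 in Control 2 under both settings.

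Atp12a, the proton/potassium pump, was the other gene whose libraries did not overlap, in the opposite direction. It measured 450.0 and 772 CPM in Control, 842, 1287 and 1094 CPM in Stress and 756 CPM in Dexamethasone, with a log2 fold change of 0.98 ± 0.36 (SE, edgeR adjusted p = 0.313). This difference moved with the make-up of the class. In cluster 0 alone Atp12a stood at 469 and 772 CPM in Control and at 475, 421 and 37.1 CPM in Stress, and the log2 fold change turned to -0.90 ± 0.62 (SE, edgeR adjusted p = 0.708). Of the 9 transporters tested, 1 had all Stress libraries above Control and 1 below, where 13.6% and 16.1% of all tested genes did.

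The other surface genes overlapped between the groups. Slc26a3 measured 2338 and 3145 CPM in Control against 2928, 4164 and 3575 CPM in Stress (log2 fold change 0.47 ± 0.33, SE, edgeR adjusted p = 0.695). Slc15a1 measured 721 and 303 CPM in Control against 1004, 1198 and 365 CPM in Stress (0.74 ± 0.49 on the log2 scale, SE, edgeR adjusted p = 0.668). Car4 measured 1392 and 2069 CPM in Control against 2215, 2136 and 1386 CPM in Stress. The 2 ranges are nearly the same, with a log2 fold change of 0.28 ± 0.36 (SE). Car1, the cytosolic anhydrase, measured 549 and 1021 CPM in Control against 583, 474 and 340 CPM in Stress (-0.55 ± 0.37 on the log2 scale, SE). The sign turned for each of these 4 genes without the mitochondrial limit, to -0.13 for Slc26a3, -0.22 for Slc15a1, -0.97 for Car4 and 0.34 for Car1, and none passed.

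For the sodium/proton exchangers the libraries of 1 group differed as much as the groups did. Slc9a2 measured 709 and 359 CPM in Control against 609, 651 and 474 CPM in Stress, with a log2 fold change of 0.11 ± 0.36 (SE) that was -0.046 without the mitochondrial limit. Slc9a3 measured 461 and 0 CPM in Control against 123, 219 and 997 CPM in Stress, with a log2 fold change of 0.40 ± 0.77 (SE). In Control 2 its count of 0 came from 23 colonocyte-like nuclei, which allows up to 82.8 CPM at 3 counts. Slc13a2 followed Slc9a3 in Stress 3, with 114 and 138 CPM in Control against 38.9, 71.8 and 511 CPM in Stress (0.51 ± 0.81 on the log2 scale, SE). Without Stress 3 its log2 fold change was -0.87 and that of Slc9a3 -0.75. Slc13a2 without the mitochondrial limit had an unadjusted edgeR p under 0.05 in colonocyte-like, crypt-like and epithelium-like barcodes, and was called in none of them. In those crypt-like barcodes it measured 0 and 5.84 CPM in Control against 54.4, 54.5 and 49.7 CPM in Stress, on 0 to 33 UMIs a library.

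**Figure D4:**
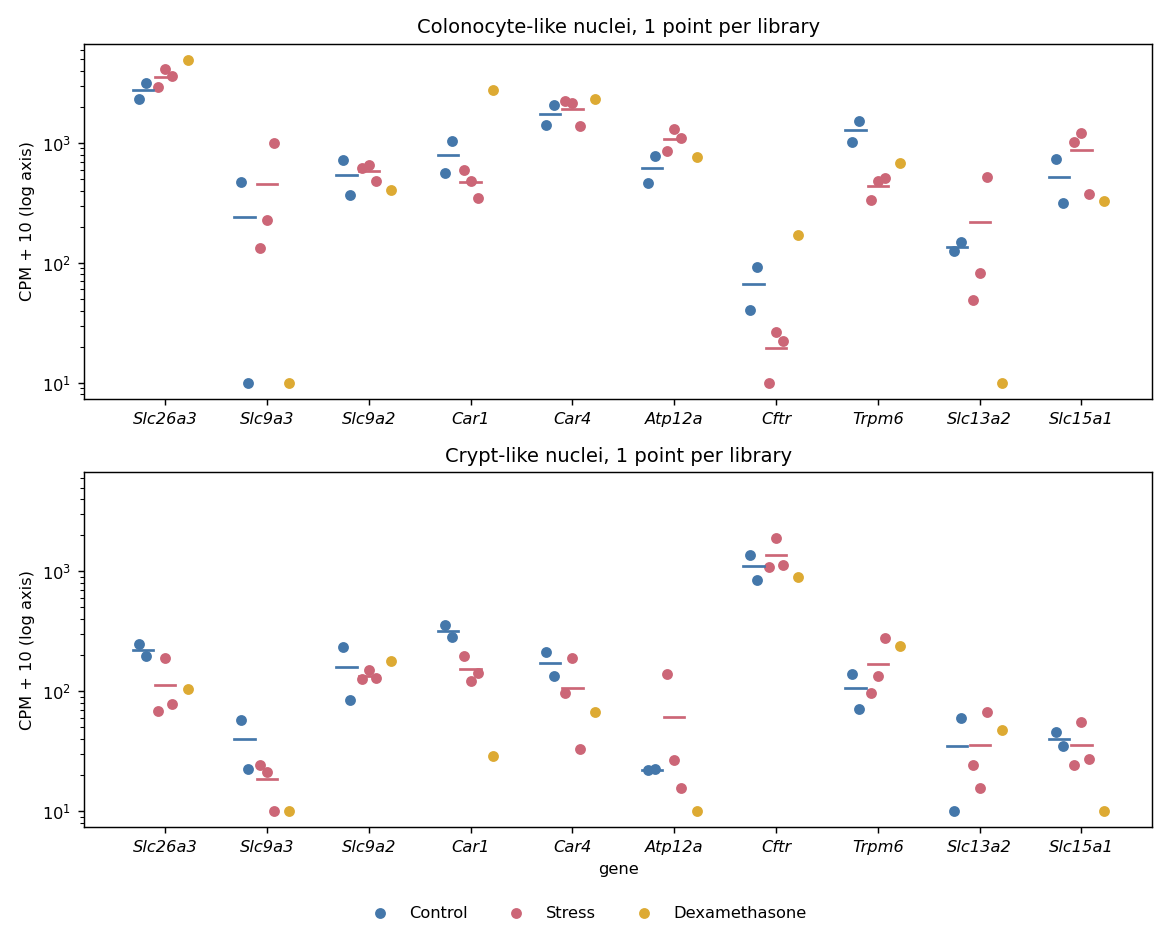
CPM + 10 on a log axis for each transporter in colonocyte-like (top) and crypt-like (bottom) nuclei, 1 point per library coloured by group, with a line at the mean of the 2 Control and of the 3 Stress libraries; points at 10 are libraries with 0 UMIs. Trpm6 and Atp12a in colonocyte-like nuclei and Slc26a3 and Car1 in crypt-like nuclei are the genes whose Stress points do not overlap those of Control among the genes tested.

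In crypt-like nuclei 2405 genes were tested and 3 were called (0.125%). Of the 6 transporters that passed the count filter edgeR called 0, with 2 at an unadjusted p under 0.05, and DESeq2 called 0. Here too the share of all genes at that unadjusted p is not given, and the 2 are not read as a result. Cftr, the channel of this compartment, measured 1352 and 840 CPM in Control against 1072, 1906 and 1118 CPM in Stress. The Stress values reach on both sides of Control 1, and the log2 fold change was 0.21 ± 0.34 (SE, edgeR adjusted p = 0.905). Car1 measured 344 and 272 CPM in Control against 188, 112 and 131 CPM in Stress, on 13 to 29 UMIs a library, without overlap (-1.28 ± 0.35 on the log2 scale, SE, edgeR adjusted p = 0.210). Slc26a3 measured 237 and 185 CPM in Control against 57.9, 180 and 68.5 CPM in Stress, on 4 to 32 UMIs (-1.05 ± 0.46 on the log2 scale, SE, edgeR adjusted p = 0.483). The Slc26a3 value without the mitochondrial limit was 0.37 and that of Car1 -0.43, and both genes then overlapped between the groups. Car1 measured 153 and 87.6 CPM in Control against 87.1, 87.5 and 94.4 CPM in Stress in that setting. Slc26a3 measured 137 and 35.0 CPM in Control against 61.7, 165 and 44.7 CPM in Stress. With the limit, of the 6 tested, 0 had all Stress libraries above Control and 2 below, where 19.0% and 9.85% of all tested genes did.

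Trpm6 was not lower in crypt-like nuclei of stressed mice. It measured 130 and 61.8 CPM in Control against 86.9, 124 and 268 CPM in Stress, with a log2 fold change of 0.70 ± 0.54 (SE, edgeR adjusted p = 0.766). Crypt-like Trpm6 without the mitochondrial limit measured 102 and 51.1 CPM in Control against 163, 140 and 243 CPM in Stress. Its unadjusted edgeR p was under 0.05 in that setting, where no transporter was called. The difference between its stress effects in colonocyte-like and crypt-like nuclei, was tested in edgeR with an interaction term, added after the data were seen. It was -1.95 ± 0.58 (SE) on the log2 scale, with an edgeR adjusted p of 0.452 over 3842 genes, so that the effects were not shown to differ. Without the mitochondrial limit it was -2.40 ± 0.41 (SE), with an edgeR adjusted p of 0.172 over 8750 genes. Car4 (log2 fold change -0.84 ± 0.62, SE) and Slc9a2 (-0.36 ± 0.46, SE) overlapped between the groups in crypt-like nuclei.

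**Figure D5:**
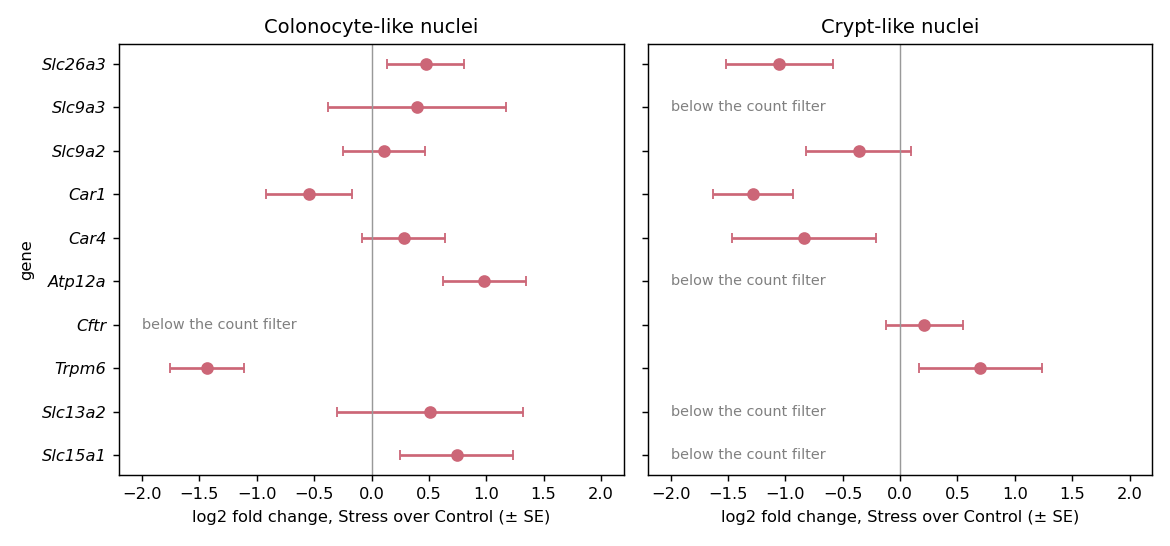
Log2 fold change of Stress over Control (horizontal axis) with its standard error for each transporter in colonocyte-like (left) and crypt-like (right) nuclei, from edgeR; genes below its count filter have no point. Trpm6 is at -1.43 in colonocyte-like and 0.70 in crypt-like nuclei, and no gene passed an adjusted p of 0.05 in either panel.

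Summed over all epithelium-like nuclei, 6648 genes were tested and 0 were called by edgeR (0.0%), with 318 at an unadjusted p under 0.05, while DESeq2 called 26. Of the 10 transporters edgeR and DESeq2 called 0, and 1 (Atp12a) had an unadjusted p under 0.05 in each. Atp12a measured 246 and 160 CPM in Control against 488, 836 and 216 CPM in Stress (1.37 ± 0.60 on the log2 scale, SE, edgeR adjusted p = 0.992). Trpm6 measured 528 and 301 CPM in Control against 162, 299.98 and 204 CPM in Stress (-0.90 ± 0.41, SE, edgeR adjusted p = 0.992). Trpm6 was the only transporter of the 10 with all Stress libraries below Control, the nearest pair being 299.98 CPM in Stress 2 and 301.23 CPM in Control 2, and 0 had them all above, where 9.15% and 9.21% of tested genes did.

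These sums depend on how many surface cells each library holds. Colonocyte-like nuclei were 45.5% and 19.8% of the epithelium-like nuclei in Control and 43.2%, 57.9% and 18.6% in Stress. Fewer colonocytes and less RNA per colonocyte cannot be told apart in such a sum. Epithelium-like nuclei themselves were 30.9% ± 7.50 (SD, n = 2) of kept nuclei in Control and 33.5% ± 12.8 (SD, n = 3) in Stress (exact permutation test, two-sided, p = 0.8). Crypt-like nuclei were 32.1% ± 13.2 (SD, n = 2) of the epithelium in Control and 29.9% ± 11.9 (SD, n = 3) in Stress (exact permutation test, two-sided, p = 0.9). Both differences turned without the mitochondrial limit: epithelium-like barcodes were 54.7% in Control and 37.4% in Stress, a difference of -17.3 percentage points (exact permutation test, two-sided, p = 0.3), and the crypt-like share was 10.8% and 17.6%, a difference of 6.82 (exact permutation test, two-sided, p = 0.4). With 2 libraries against 3 this exact test cannot go below p = 0.1. These shares come after a sort for the tag and a limit on mitochondrially encoded UMIs, both of which can set them.

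The single Dexamethasone library held 4 colonocyte-like and 11 crypt-like nuclei, and 39 epithelium-like nuclei in all (10.3% of its kept nuclei). It was tested against Control in a fit of all 6 libraries, in which it is assumed to vary like the others. Its counts were also made with another version of the counting software than those of Control, and this cannot be told apart from the treatment. In colonocyte-like nuclei 5 of 3296 genes were called (0.152%), in crypt-like nuclei 3 of 3259 (0.0921%), and in epithelium-like nuclei 0 of 7644 (0.0%), with 596 at an unadjusted p under 0.05 and 3 called by DESeq2. Of the transporters tested, 10, 7 and 10, edgeR and DESeq2 called 0 in each of the 3 comparisons. At an unadjusted p under 0.05 edgeR had 1, 1 and 2.

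Car1 was the gene of lowest p in both compartments, with opposite signs. In colonocyte-like nuclei it measured 2747 CPM (69 UMIs) with dexamethasone against 549 and 1021 CPM in Control (1.77 ± 0.50 on the log2 scale, SE, edgeR adjusted p = 0.266). In crypt-like nuclei it measured 18.9 CPM (1 UMI, exact 95% Poisson interval 0.478 to 105 CPM) against 344 and 272 CPM (edgeR adjusted p = 0.132). Crypt-like Car1 without the mitochondrial limit measured 52.3 CPM (7 UMIs) against 153 and 87.6 CPM, with a log2 fold change of -1.20 ± 0.55 (SE, edgeR adjusted p = 0.767). Slc26a3 measured 4897 CPM with dexamethasone in colonocyte-like nuclei, above both Control values (0.74 ± 0.48 on the log2 scale, SE, edgeR adjusted p = 0.543). Trpm6 measured 677 CPM there, below both (-0.98 ± 0.53, SE, edgeR adjusted p = 0.493). Cftr measured 887 CPM in crypt-like nuclei, between the Control values (-0.36 ± 0.49, SE, edgeR adjusted p = 0.847).

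With 98 colonocyte-like barcodes and no mitochondrial limit, the log2 fold changes of the Dexamethasone library were smaller for both genes. Car1 measured 1038 CPM against 688 and 593 CPM (0.63 ± 0.72 on the log2 scale, SE), and Trpm6 516 CPM against 897 and 571 CPM (-0.58 ± 0.56, SE). Slc9a3, at 0 UMIs in the 4 nuclei of the stricter set, measured 448 CPM here, close to the 492 CPM of Control 1. No transporter passed the edgeR threshold in this setting, and 0 of 10 had an unadjusted p under 0.05.

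Slc9a3 differed more between the 2 Control libraries than between groups. Over all barcodes it measured 151 CPM in Control 1, 3.84 CPM in Control 2, 182, 113 and 86.9 CPM in Stress and 91.0 CPM in Dexamethasone. Control 2 is thus far below each of the other 5 libraries, and it held the most UMIs in total. None of the other 9 transporters was lowest in Control 2: over all barcodes each had a higher level there than in at least 1 other library. Slc13a2 came nearest to being lowest, at 34.5 CPM in Control 2. It measured 36.0 CPM in Control 1, 87.0, 51.5 and 34.7 CPM in Stress and 22.8 CPM in Dexamethasone. In the Slc9a3-rich cluster found without the mitochondrial limit, Control 2 had 5 of 433 barcodes, while Control 1 had 182. In the cluster led by Cpm and Car4, to which Control 2 gave 354 barcodes, Slc9a3 measured 12.4 CPM in Control 2 and 55.8 CPM in Control 1.

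A wider list of 55 transport genes and one of 29 regulators was read in the same fits, beside the transporters themselves. In epithelium-like nuclei of stressed mice 46 transport genes and 21 regulators were tested, and 0 passed in either direction. Their median log2 fold changes were 0.28 and 0.19, against -0.01 over all genes tested. In colonocyte-like nuclei 26 transport genes were tested, of which 1 was higher and 0 lower, with a median of 0.34 against -0.00 over all genes, and 0 of 16 regulators passed (median 0.28). In crypt-like nuclei 0 of 22 transport genes and 0 of 16 regulators passed (medians 0.08 and 0.19 against 0.01). With dexamethasone, 2 of 32 transport genes were higher and 0 lower in colonocyte-like nuclei, where 0 of 18 regulators passed (medians 0.17 and 0.18 against -0.27). In its crypt-like nuclei 0 of 29 and 0 of 18 passed (medians -0.05 and -0.10 against -0.06), and in its epithelium-like nuclei 0 of 47 and 0 of 23 (medians -0.24 and -0.27 against -0.04). There the 10 transporters themselves had a median of -1.49, with 1 of 10 above 0, and colonocyte-like nuclei were 10.3% of the epithelium-like nuclei of that library.

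The 3 called genes of the transport list are named here after their values were seen. Clca4b, a calcium-activated chloride channel regulator, was higher in Stress (edgeR adjusted p = 0.0346). It had 0 UMIs in both Control libraries and 96, 380 and 10 UMIs in the Stress libraries. These counts are not scaled for depth, and they come from 126 and 23 nuclei in Control and 79, 179 and 23 in Stress. Cluster 1, part of this class, held 158 nuclei of Stress 2 out of 214 and none of Control 2. A value of Clca4b for cluster 0 alone is not given here. Scnn1b and Scnn1g, subunits of the epithelial sodium channel that corticosteroids induce in the distal colon, were higher with dexamethasone (edgeR adjusted p = 0.0320 and 0.0206). The dexamethasone values of both come from 4 colonocyte-like nuclei of the single library, counted with another software version than Control. Treatment and software version cannot be told apart there. Scnn1b measured 597 CPM (15 UMIs) with dexamethasone against 30.5 and 0 CPM in Control. Its Stress values were 233, 277 and 134 CPM. Scnn1g measured 1393 CPM (35 UMIs) against 53.4 and 0 CPM in Control. Its Stress values were 175, 312 and 60.8 CPM. In colonocyte-like nuclei Nr3c2, the mineralocorticoid receptor, ranged from 5076 to 6763 CPM over the 6 libraries. None of the 3 genes was called when the mitochondrial limit was lifted, where the edgeR adjusted p was 0.247 for Clca4b, 0.692 for Scnn1b and 0.612 for Scnn1g.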

How the data were processed

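Each library is a 10x Genomics run on sorted colon nuclei. The deposited matrices hold counts of UMIs per gene and barcode, made by the authors with Cell Ranger 4.0.0 for Control and Stress and 5.0.1 for Dexamethasone, per the file headers. Per the submitters' processing notes the version was 5 and the build mm10. The deposited gene and barcode lists hold names, which are other values and not measurements. Whether intronic reads were counted is not given in the sources used here.

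A barcode was kept from 300 detected genes upward and if mitochondrially encoded genes held no more than 5% of its UMIs (3461 barcodes). Scrublet then marked 31 doublets (0.896%), library by library, and 3430 nuclei remained. Counts scaled to 10000 and log-transformed were clustered with scanpy 1.11.5 (2000 variable genes without the 10 transporters, 30 principal components, 15 neighbours, Leiden at resolution 1.0). A cluster took the name of its best-scoring marker list (mean log2 fold at least 0.5, at least 3 markers each in 10% of nuclei). It stayed unnamed where squamous keratins, or more markers of another class than of its own, were among its top 10 genes. The last rules were set after the clusters were seen. Without the mitochondrial limit, 3 epithelium-like clusters (597, 572 and 330 barcodes) could not be assigned to a subtype by these rules and entered the epithelium-like sums only.

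UMIs summed per library and class were tested with edgeR 4.0.16 (filterByExpr, TMM, quasi-likelihood F-test), with DESeq2 1.42.0 as an alternative, and checked on simulated data. Stress against Control used 5 libraries. Intervals and floors (3 counts) cover counting error only. Named genes are the 10 transporters, transport-list genes past 0.05 in the epithelium-like comparisons (none), and the 3 genes most like each transporter. The transporters and lists were chosen with earlier results of these data known. The transport list shares 5 genes, and the regulator list 2, with the marker lists.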

Additional observations from a re-analysis of the deposited data

How the results depend on the processing

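Over 67 alternatives the count of transporters called stayed at 0 in 63. It was 1 in Stress colonocyte-like nuclei with DESeq2 and with the replicate block (Trpm6, -1.44 and -1.52 on the log2 scale, adjusted p = 0.0185 and 0.0266), 1 in Dexamethasone crypt-like nuclei with the block (Car1, -4.26, adjusted p = 0.00962) and 2 in Dexamethasone epithelium-like nuclei with no filter on low counts. The labels number the replicates and give no pairing. Deviations from the group mean correlated at 0.06 for Control 1 and Stress 1 and at -0.23 for Control 2 and Stress 2, over 7644 genes. With 2 Control libraries their deviations mirror each other, so these values cannot decide whether the numbers pair the libraries. With the replicate block 48 genes were called in Stress and 17 in Dexamethasone colonocyte-like nuclei, and 28 and 13 in crypt-like nuclei. Crossed pairing was not run.

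Counts of all genes called were less stable. In epithelium-like nuclei Stress gave 26 with DESeq2, 113 with no filter and 4 at resolution 1.5, and Dexamethasone gave 3 with DESeq2, 107 with no filter, 12 at the stricter quality limits and 9 at resolution 0.6. In Stress colonocyte-like nuclei the count was 14 with DESeq2, 0 without the mitochondrial limit and 1 in cluster 0 alone. It was 0 in Dexamethasone colonocyte-like and 1 in Stress crypt-like nuclei without that limit, and 13 in Dexamethasone crypt-like nuclei with the transporters kept among the clustering genes. Leaving out 1 library gave 0 to 9 (Stress) and 0 to 1 (Dexamethasone) in epithelium-like, 0 to 11 and 0 to 13 in colonocyte-like, and 0 to 46 and 3 to 3 in crypt-like nuclei. The highest Stress counts came without Control 1 (9 and 46) and without Stress 3 (11). The cause of these changes was not tested.

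Of 217 alternative values for single transporters, 193 kept direction and side of the threshold, and none that reversed passed it. In Stress colonocyte-like nuclei the log2 fold change turned without the mitochondrial limit for Car1 (0.34), Slc26a3 (-0.13), Slc15a1 (-0.22), Car4 (-0.97) and Slc9a2 (-0.046), in cluster 0 alone for Atp12a (-0.90) and Car4 (-0.068), and with the block for Slc9a3 (-0.41) and Slc13a2 (-1.11). Leaving out 1 library gave -0.23 to 0.92 for Slc9a2, -0.75 to 9.39 for Slc9a3 (the upper value without Control 1, which leaves Control at 0) and -0.87 to 1.03 for Slc13a2. In Stress crypt-like nuclei it gave -0.10 to 0.67 for Cftr and -0.93 to 0.73 for Slc9a2, and without the mitochondrial limit Cftr was at -0.033 and Slc26a3 at 0.37. In Dexamethasone crypt-like nuclei Cftr ran from -0.67 to 0.069. Trpm6 in Stress epithelium-like nuclei was 0.22 at resolution 1.5, where 212 nuclei with keratin genes among their leading genes left the named epithelium. The Stress minus Control difference in epithelium-like nuclei (2.55 percentage points) ran from -3.02 to 9.54 without 1 library and was -17.3 without the mitochondrial limit. That in the crypt-like share (-2.12) ran from -11.4 to 7.196 and was 6.82. Depth limits the crypt-like values, where several transporters rest on under 10 UMIs a library, and the colonocyte-like values of Dexamethasone (4 nuclei), Control 2 and Stress 3 (23 nuclei each).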

Other observations

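The place of Slc9a3 among all genes in Control 2 was looked up after its values were seen. Over all barcodes, 7466 genes had at least 1000 UMIs in the 6 libraries together. For each, the log2 ratio of its CPM (1 added) in Control 2 to the lowest of the other 5 libraries was taken. Slc9a3 had the lowest ratio of all 7466 genes, -4.18 (3.84 CPM against 86.9 CPM). The next were Zbtb16 (-3.09, 9.503 against 88.5 CPM), a zinc finger factor induced by glucocorticoids, Nr4a3 (-2.81, 4.25 against 35.7 CPM), an immediate early orphan receptor, and Pcsk5 (-2.55, 11.5 against 72.0 CPM), a proprotein convertase. Pcsk5 was also among the 10 leading genes of the Slc9a3-rich cluster found without the mitochondrial limit. The same ratio taken for Stress 3 was below 0 for most transporters. It was -1.91 for Car4, -1.78 for Slc15a1, -1.26 for Atp12a, -1.16 for Car1 and -0.70 for Slc26a3. For Trpm6 it was -0.66, for Slc9a2 -0.32 and for Cftr -0.14. Slc13a2 (0.59) and Slc9a3 (4.18) were above 0 in Stress 3. The cause was not tested.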
